A study of Mytilus galloprovincialis with 16 samples.

Results

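Transcript abundance was compared between male and female digestive glands of the mussel Mytilus galloprovincialis at stage 1 of gonad development. The comparison comprised the 4 arrays that the labels assign to this stage, out of 16 arrays over 4 stages. Each array set the gland of 1 male against the gland of 1 female by competitive hybridisation, in which both cDNA samples carried a different fluorescent dye and competed for the same spots. The males and the females were single wild animals taken in November from the Bizerta Lagoon in Tunisia, and the labels name no treatment for either sex. Males carried Cy3 in replicates 1 and 3 and Cy5 in replicates 2 and 4. The stages were sampled in different months, so that stage and month cannot be told apart, and the labels give no age of the animals. The sex and the stage were read from mantle sections in the study's methods.

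The digestive gland is the organ in which mussels take up and digest food inside cells, store reserves and handle contaminants. The gonad of a mussel grows mostly within the mantle, and the reserves of the gland are one of the sources on which gamete production draws. At stage 1 the gonad is in its early phase, before gametes are ripe. The array carried cDNA clones made from different mussel tissues, and the ratio of both dyes on a clone gives the relative abundance of its transcript in the male and in the female.

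The array held 1920 clones, each spotted 2 times. The study's methods state fewer independent sequences for the array, so that counts here are of clones and not of distinct transcripts. The clones were not linked to genes, since no table at hand sets their identifiers beside gene names or sequence entries. Clones are therefore given by their identifiers or by rank, no function is attached to them, and neither the identity of the tissue nor an admixture of gonad or blood cells could be checked with marker genes. In bulk tissue, fewer cells of a type and less RNA per cell cannot be told apart. Foreground intensity reached at most 29131 units, below the limit of the scanner. Signal was taken as above background if the foreground of at least 1 of the 2 spots of a clone passed the local background plus 2 SDs of that background. By array, 533 to 772 clones were above background in males and 553 to 689 in females, and 985 to 1250 clones were above background in neither sex. Replicate 1 had the largest excess of males, with 772 clones in the male against 553 in the female, whereas replicate 3 had fewer in the male (533) than in the female (609). Over the 4 arrays, 289 clones (15.1%) were above background in both sexes on every array, and 692 (36.0%) in neither sex on any array. Dim clones thus made up a large part of the array, and for those little can be said of the sexes at this signal.

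Males and females differed at stage 1 in 95 of 1920 clones (4.95%), and most of the differences ran one way. Males had the higher level in 86 clones (4.48%) and the lower level in 9 (0.469%). All ratios are log2 values with the male in the numerator, and a clone was called when its limma p, adjusted by Benjamini-Hochberg over the 1920 clones, was under 0.05. The spread behind each p was estimated over the arrays of all 4 stages, whereas each SD given is of stage 1 alone unless another stage is named. Each of the 95 clones had the same sign on 4 of 4 arrays, which 421 of all 1920 clones had. Without replicate 4 the count was 49, without replicate 1 it was 60 and without replicate 2 it was 63. It was 40, of which 39 were higher in males, when arrays of 1 stage and dye orientation were treated as a random block.

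**Figure D1:**
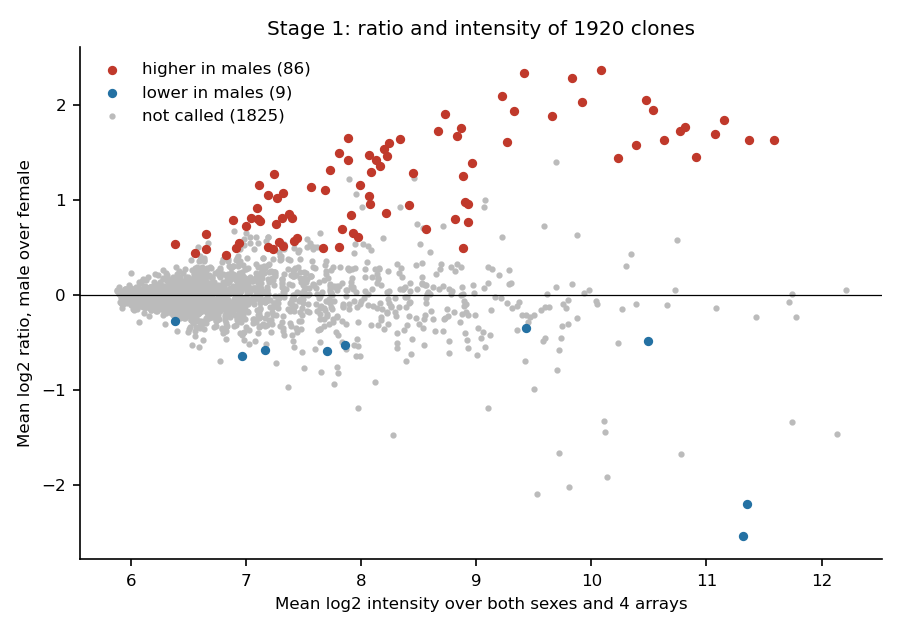
Mean log2 ratio of male over female (vertical axis) against the mean log2 intensity of both sexes (horizontal axis) for 1920 clones over the 4 arrays of stage 1. Each point is a clone, and colours mark the 86 clones called higher in males, the 9 called lower and the clones not called. The called clones with large ratios lie at medium and high intensity, and several bright clones below 0 were not called.

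The 4 arrays did not show the higher clones to the same degree. The median log2 ratio of the 86 clones was 0.94 in replicate 1, 1.42 in replicate 2, 0.78 in replicate 3 and 1.23 in replicate 4. Replicate 2 was the highest of the 4 arrays for 44 of the clones, and replicate 3 was the lowest for 44. Both arrays with males in Cy5 therefore had higher medians than both arrays with males in Cy3. Averaged by dye, the median was 1.35 with males in Cy5 and 0.93 with males in Cy3. The sign was the same in both orientations for 86 of 86 clones, which follows from their shared sign on all 4 arrays. A test of the difference between both orientations called 0 clones in limma, with 188 at an unadjusted p under 0.05. Fitted on the arrays with males in Cy3 only, 18 clones were called, against 85 on those with males in Cy5 only. How much of the differences among arrays came from the dyes and how much from the animals was not tested, since each array holds its own pair of animals.

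**Figure D2:**
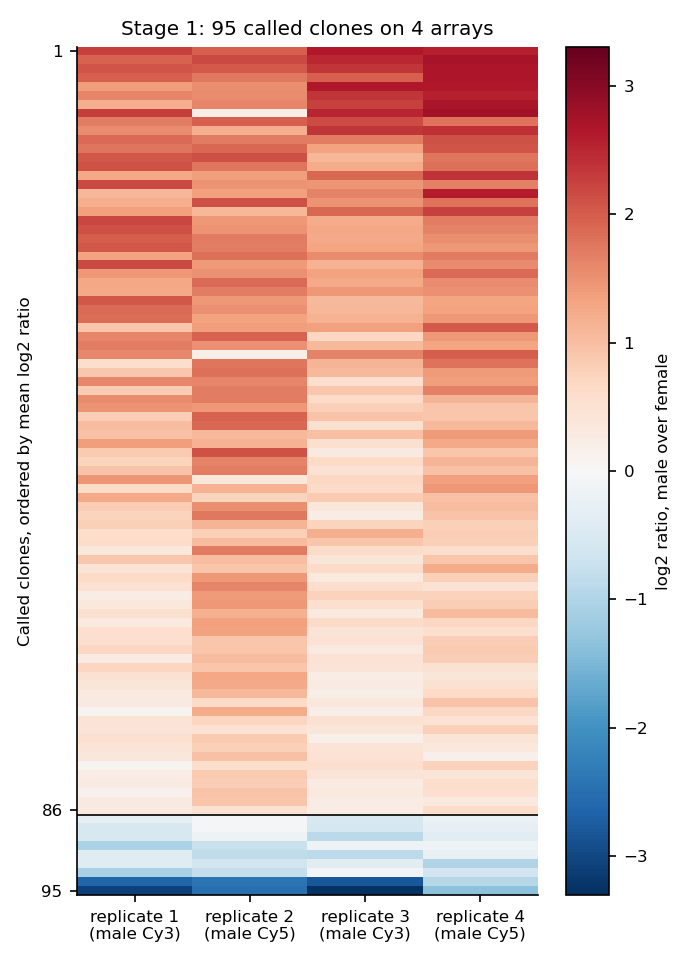
Log2 ratio of male over female (colour scale, red for higher in males) of the 95 called clones (rows, ordered by their mean ratio) on the 4 arrays of stage 1 (columns, with the dye of the male). The upper 86 rows are red and the lower 9 blue on all 4 arrays, and many rows are palest in replicate 3.

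The clones that were above background in both sexes on all 4 arrays give the most complete ratios. Of these 289 clones, 37 were higher in males and 5 were lower, which made 42 called clones (14.5%) against 4.95% of all clones. The log2 ratios of the 37 clones ranged from 0.49 to 2.36, with a median of 1.63. Of the 37, 27 were over 2-fold and 6 were over 4-fold higher in males, and for 10 the 95% confidence interval of the ratio lay entirely beyond 2-fold.

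Clone Myt01-007H10 had the largest ratio among the 37. Its normalised intensity was 2801, 2645, 2496 and 2015 in the males of replicates 1 to 4, against 582, 672, 397 and 341 in the females. Every male lay above every female, and the 4 ratios differed little (log2 2.27, 1.98, 2.65 and 2.56). The mean was 2.36 ± 0.31 (SD, n = 4), or 5.15-fold, with a limma adjusted p of 0.000976.

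Clone Myt01-006C06 was second in size. Males had intensities of 1047, 967, 1931 and 2810.4 in replicates 1 to 4, and females had 271, 213, 345 and 424. The sexes did not overlap, and both sexes were brighter in replicates 3 and 4 than in replicates 1 and 2. The log2 ratios were 1.95, 2.18, 2.48 and 2.73, with a mean of 2.34 ± 0.34 (SD, n = 4), which is 5.05-fold (limma adjusted p = 0.00182). The call was kept under all but 1 of 33 alternatives, the fit on the arrays with males in Cy3 only.

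The 37 clones did not follow the same order of arrays, and the following description was made after their values were seen and has no test. For 9 clones, both named clones among them, replicates 3 and 4 lay above replicates 1 and 2. Their median log2 ratios were 1.56, 1.57, 2.37 and 2.59 in replicates 1 to 4. For 10 other clones replicate 1 was the highest and replicate 3 the lowest, with medians of 2.08, 1.49, 1.22 and 1.54. The other 18 clones had medians of 1.05, 1.36, 0.66 and 1.24. In 8 of the 37 clones both arrays with males in Cy5 lay above both with males in Cy3, and in 0 of the 37 the opposite held. The likeness within the 9 and within the 10 clones is set by how they were picked.

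In 12 further clones the transcript was above background in the male on 4 of 4 arrays and in the female on none. Only 13 clones of the array had this signal, and a clone enters by being dim in females, so that the count of 12 is no support for a difference. The folds set the males against the female signal or the dimmest signal still above background on that array, whichever was higher. These floored folds are point values from 4 arrays and not confidence limits. They lay between 1.43-fold and 2.35-fold.

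Clone Myt01-005G12 led this group. Its intensity was 179.6, 298, 195 and 293 in males of replicates 1 to 4, and 101, 92.2, 106 and 91.7 in females. The female values were at background level, and the males carrying Cy5 were brighter than those carrying Cy3. The log2 ratios were 0.83, 1.69, 0.89 and 1.67, the mean was 1.27 ± 0.48 (SD, n = 4, limma adjusted p = 0.000177), and the floored fold was 2.35. The 95% confidence interval of the log2 ratio was 0.95 to 1.59. With stage 1 fitted alone, the limma adjusted p was 0.0260.

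Clone Myt01-014A02 was next. Males had intensities of 191, 266, 191 and 185 in replicates 1 to 4, and females had 109.6, 69.3, 99.0 and 98.0. The male of replicate 2 was the highest, and the female values were at background level, so that their order carries no information and enters the ratios. The log2 ratios were 0.80, 1.94, 0.95 and 0.92, with a mean of 1.15 ± 0.53 (SD, n = 4, limma adjusted p = 0.000305), and the floored fold was 2.10. The 95% confidence interval of the log2 ratio was 0.85 to 1.46, and without replicate 2 the mean was 0.89. With stage 1 fitted alone, the limma adjusted p was 0.0473. Of the remaining 37 higher clones, 23 were above background in the male on 4 arrays and in the female on 1 to 3 (median log2 1.10), and 14 were above background in the male on fewer than 4 arrays (median log2 0.56).

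**Figure D3:**
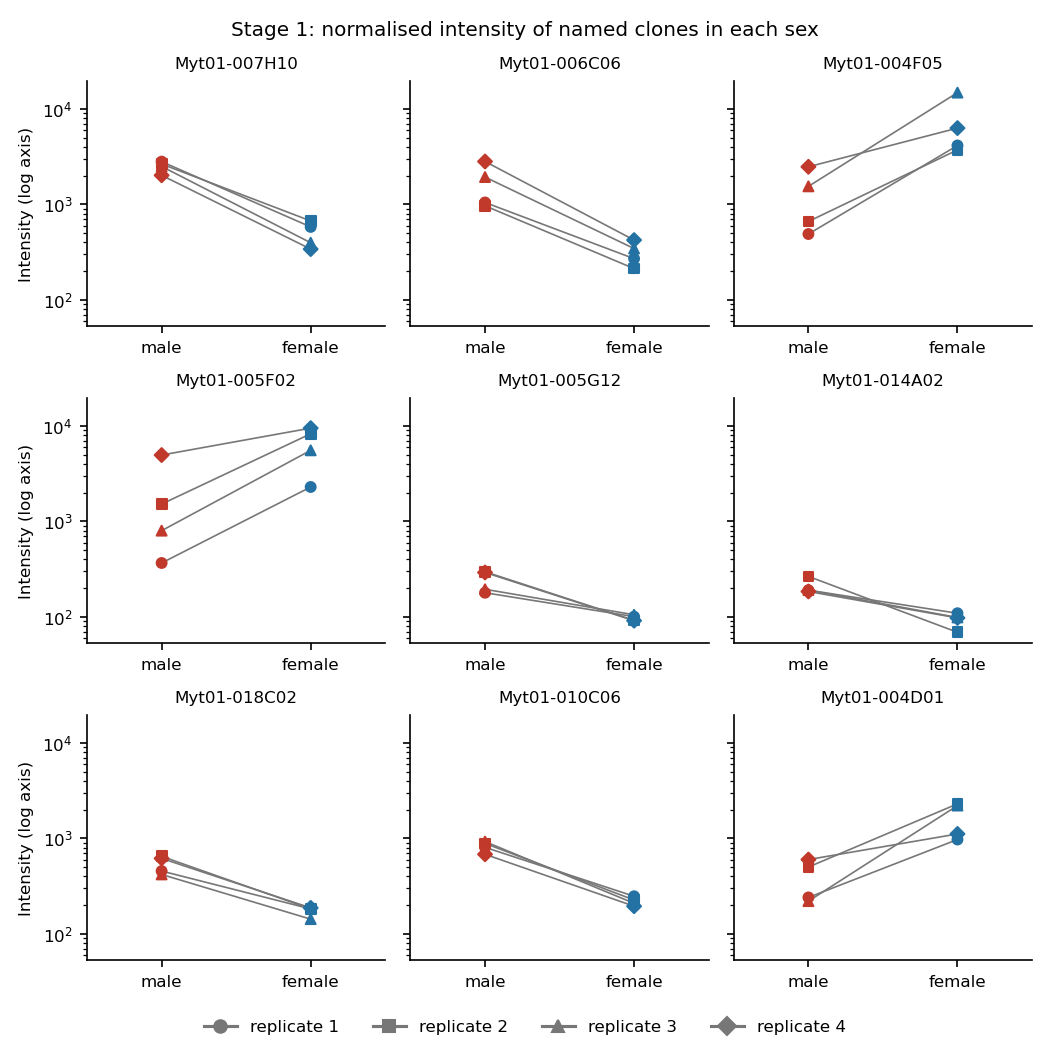
Normalised intensity (logarithmic axis, arbitrary units) of the 9 named clones in the male (left, red) and the female (right, blue) of each stage 1 array, with a line joining the animals of 1 array and a symbol per replicate. Males lie above females on all arrays for 6 clones and below them for Myt01-004F05, Myt01-005F02 and Myt01-004D01.

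The 9 clones lower in males were a mixed group. A pair of them were bright and differed over 4-fold, whereas the other 7 had log2 ratios between -0.65 and -0.27, each under 2-fold. The median of the 9 was -0.59. Of the 9, 5 were above background in both sexes on all arrays.

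Clone Myt01-004F05 had the lowest ratio of all 1920 clones. Its intensity was 490.1, 663, 1544 and 2474 in males of replicates 1 to 4, against 4132, 3715, 14747 and 6281 in females. The sexes did not overlap, but the male of replicate 4 was far brighter than the male of replicate 1. The log2 ratios were -3.08, -2.49, -3.26 and -1.34, with a mean of -2.54 ± 0.86 (SD, n = 4, limma adjusted p = 0.0320). The call was lost in 11 of 33 alternatives, among them the fits without each of the 4 replicates, and over the alternatives the adjusted p ranged from 5.15e-05 to 0.286.

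Clone Myt01-005F02 behaved alike on the 4 arrays. Males had 367, 1518, 800.0 and 4942 units in replicates 1 to 4, and females had 2290.3, 8247, 5533 and 9448. The male of replicate 4 was brighter than the female of replicate 1, so that the sexes overlapped although each male was below the female of its own array. The log2 ratios were -2.64, -2.44, -2.79 and -0.93, with a mean of -2.20 ± 0.86 (SD, n = 4, limma adjusted p = 0.00970). The call was lost in 7 of 33 alternatives, among them those without replicate 1, 2 or 3, and the adjusted p ranged from 2.48e-06 to 0.162.

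Replicate 4 also stood apart among bright clones that were not called. Of the 247 clones above background in both sexes on all arrays and not called, 12 had a mean difference over 2-fold, and 10 of these were lower in males. In all 10 the ratio was below 0 on replicates 1, 2 and 3, where it ranged from -3.53 to -0.88, and replicate 4 was the highest array. On replicate 4 it ranged from -0.89 to 0.76 and was above 0 in 5 of the 10 clones. The adjusted p of the 10 clones was between 0.0512 and 0.329. These 10 clones were thus lower in the male in 3 pairs of animals and less so, or not at all, in the fourth pair. A mean over 2-fold stays uncalled where the spread is large. An array apart from the others is therefore partly set by how these clones were picked, and the pattern has no test.

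The largest of them, Myt01-004D01, had intensities of 241, 502, 221 and 601 in males of replicates 1 to 4 and of 974, 2299, 2203 and 1114 in females. The sexes did not overlap, and the gap was smallest in replicate 4. Its log2 ratios were -2.01, -2.20, -3.32 and -0.89, with a mean of -2.10 ± 0.99 (SD, n = 4), just short of the threshold (limma adjusted p = 0.0512) and past it in 11 of 33 alternatives.

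**Figure D4:**
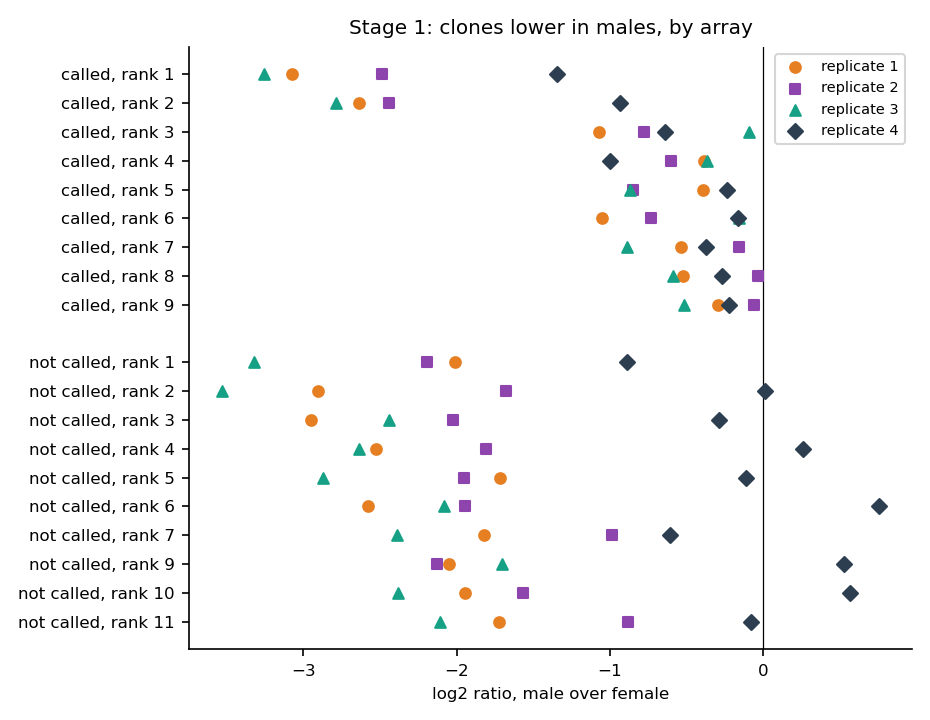
Log2 ratio of male over female (horizontal axis) of the 9 clones called lower in males (upper rows) and of the 10 clones not called with a mean over 2-fold lower in males (lower rows), with a point per array of stage 1. Ranks are by the size of the mean ratio, and rank 8 of those not called was higher in males and is left out. In the lower rows replicates 1 to 3 lie between -3.53 and -0.88, whereas replicate 4 lies between -0.89 and 0.76.

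Another clone, described because it ran opposite on 1 array, had log2 ratios of 2.27, 2.49 and 2.46 on replicates 1, 3 and 4 but -1.63 on replicate 2. Both spots showed it, with -1.50 and -1.76 on that array. The mean of 1.40 ± 2.02 (SD, n = 4) was not called (limma adjusted p = 0.251), and this was the largest spread of all 1920 clones. Among the 247 clones, the 95% interval lay within 2-fold in both directions for 194, whereas for 53 it reached 2-fold or more. A difference of this size was therefore not excluded at n = 4 in those 53 clones.

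The higher clones were not spread evenly over the identifiers, which was noticed in the data and was given no test. In the labels, methods and files used here, the identifiers hold a number from 1 to 20 with 96 clones each, and what this number stands for is not stated in those sources. Among numbers 13 to 18, 51 of 576 clones (8.85%) were higher in males and 0 were lower. Among numbers 1 to 12, 35 of 1152 (3.04%) were higher and 9 were lower, and among numbers 19 and 20 there were 0 called of 192. Of the clones above background in both sexes on all arrays, 17 of 102 were higher among numbers 13 to 18 and 20 of 176 among numbers 1 to 12. Among numbers 19 and 20 it was 0 of 11, so that few of their clones had the signal to show a difference.

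**Figure D5:**
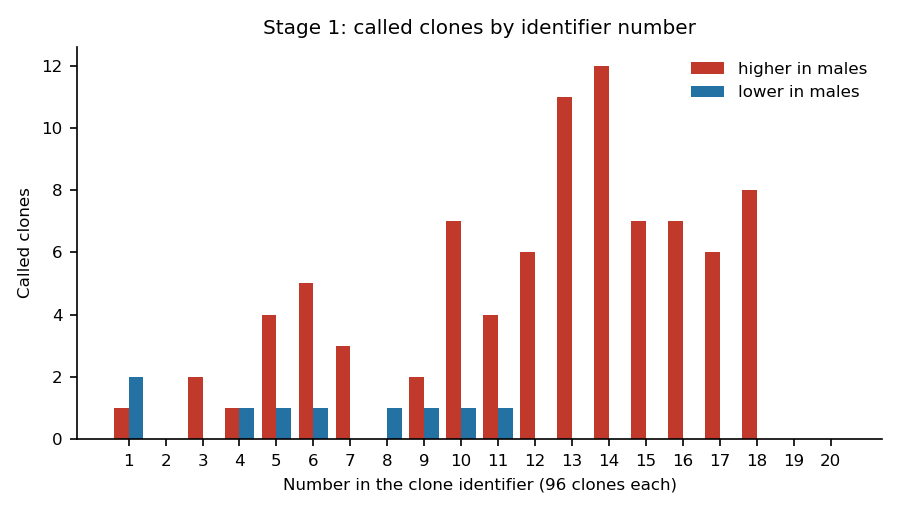
Number of clones called higher (red, left) and lower (blue, right) in males at stage 1, by the number in the clone identifier, with 96 clones per number. The bars for higher clones are tallest at 13 (11 clones) and 14 (12 clones), and all 9 lower clones fall at numbers 1 to 11.

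Stage 1 was set against stage 3 to find where the difference between the sexes was larger or smaller than in another month. The difference between stages was called in 9 of 1920 clones (0.469%), with 297 at an unadjusted p under 0.05. All 9 were called at stage 1, which shares its arrays with this contrast. Only 3 of the 9 were above background in both sexes on all stage 1 arrays. In 8 of them (0.417% of all clones) the ratio of male over female was larger at stage 1, and in 1 (0.0521%) it was smaller, whereas plain background subtraction gave 4 and 4. Leaving out replicate 2 of stage 1 left 4 calls, and leaving out replicate 4 of stage 1 also left 4.

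Clone Myt01-018C02 had intensities of 456, 649, 419.9 and 618 in males of stage 1, against 183, 183, 143 and 188 in females. The males did not overlap the females. The log2 ratios were 1.31, 1.82, 1.55 and 1.72 at stage 1 and 0.12, 0.12, 0.13 and 0.22 at stage 3. The difference of 1.46 between the stages had a limma adjusted p of 0.00882 and was called under all 10 alternatives.

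Clone Myt01-010C06 had intensities of 807, 887, 927 and 682 in males of stage 1, and 248, 227, 209.6 and 195 in females. It was among the steadiest of the large differences at stage 1, with log2 ratios of 1.70, 1.97, 2.14 and 1.80 and a mean of 1.90 ± 0.19 (SD, n = 4). At stage 3 the log2 ratios were 0.68, 0.23, 0.59 and 0.56. The difference of 1.39 (limma adjusted p = 0.0305) was not called without replicate 2, 3 or 4 of stage 1 or with plain background subtraction. Its call within stage 1 was kept under all 33 alternatives, as was that of Myt01-018C02.

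The contrast ran below 0 in Myt01-005F02, the second of the bright clones lower in males. At stage 3 its log2 ratios were 2.12, -0.43, 2.13 and 0.23, so that males lay above females on 3 arrays and the mean was 1.01 ± 1.31 (SD, n = 4). The difference of -3.22 had a limma adjusted p of 0.0378 and was not called in 6 of 10 alternatives, among them those without replicate 1, 2 or 3 of stage 1. The 10 uncalled clones that were lower in males over 2-fold at stage 1 had means above 0 at stage 3 in 9 cases. Of all 1920 clones, 995 had such a mean.

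The 37 higher clones measured in both sexes are given here by their order of arrays at stage 1, as a description with no test. The 9 clones with replicates 3 and 4 above the others had a median log2 ratio of 2.03 at stage 1 and 1.56 at stage 3 (range 1.22 to 2.45). The 10 clones with replicate 1 highest and replicate 3 lowest had 1.62 at stage 1 and 2.38 at stage 3 (range 0.67 to 3.00). The other 18 clones had 0.97 at stage 1 and 0.17 at stage 3 (range -0.31 to 2.88), so that the ranges at stage 3 overlapped widely. In the contrast of stages 2 of these 18 clones were called, and 0 of the other 19.

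Against stage 2, the difference between the sexes changed in 139 of 1920 clones (7.24%), of which 86 were also called at stage 1. The stage 1 call, made in 4.95% of all clones, shares its arrays with this contrast. Of the 139, 56 were above background in both sexes on all stage 1 arrays. The ratio was larger at stage 1 in 105 clones (5.47%) and smaller in 34 (1.77%), or in 132 and 19 with median centring in place of loess. In 136 of the 139 clones the sign was opposite at both stages. A large contrast favours opposite signs, so that this count is partly set by how the clones were picked. Over all clones the mean ratios of stages 1 and 2 had r = -0.589, which is a correlation across clones that are not independent, and all 16 pairs of a stage 1 with a stage 2 array lay below 0 (r = -0.574 to -0.0598). Of the 8 such pairs with the male in the same dye, 3 were under -0.3. Directions follow the sexes in the labels at both stages, and the labels and the study's methods give different years for the January of stage 2. Because the arrays of both stages ran opposite, the contrast was also computed with stage 2 exchanged. With the sign of the stage 2 ratios turned round, 0 clones were called in limma, with 171 at an unadjusted p under 0.05. Under the labels, 2 of the 86 higher clones had means above 0 at stage 2, 73 at stage 3 and 71 at stage 4. Of the 9 lower clones, 6, 8 and 6 lay above 0 at these stages. Of the 10 uncalled clones over 2-fold lower in males, 10, 9 and 10 did so. Over all 1920 clones, 1157 lay above 0 at stage 2, 995 at stage 3 and 794 at stage 4. Whether the sexes were exchanged at stage 2 was not tested.

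Clone Myt01-006C06 had the largest positive value of this contrast among clones measured in both sexes. To the stage 1 log2 ratios of 1.95 to 2.73 given above it set -1.47, -2.51, -0.66 and -0.06 at stage 2. The difference was 3.51 (limma adjusted p = 0.000962), and that of Myt01-007H10 was 3.37 (limma adjusted p = 0.000735). On the other side, Myt01-004F05 differed by -3.88 (limma adjusted p = 0.0141) and Myt01-004D01 by -3.44 (limma adjusted p = 0.0168). All 4 calls were lost with stage 2 turned, those of Myt01-004F05 and Myt01-004D01 also with print-tip loess, and that of Myt01-004D01 without replicate 3 of stage 1.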

How the data were processed

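The authors' deposited scanner files gave, per spot, the mean foreground intensity and the median and SD of the local background at 635 nm (Cy5) and 532 nm (Cy3), without normalisation, and per the labels the sexes were swapped between dyes. The authors' deposited value table held a log2 ratio per spot. Against the scanner ratios turned to female over male it had r = 0.930 to 1.00 and column medians of -0.0261 to 0.0207, and it served as an alternative. The submitters' processing notes name limma, with no version given.

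Background was corrected with normexp (offset 50) and each array normalised by loess in limma 3.58.1 under R 4.3.3, with 608 blank and 112 alignment spots at weight 0. Log2 ratios were turned to male over female and the 2 spots of a clone averaged. A linear model, with a coefficient for every stage, was fitted with lmFit and eBayes to 15 replicates (11 residual degrees of freedom). At stage 4, replicates 2 and 4 agreed within duplicate spot noise (0.492 times the variance expected) and were counted as 1 sample. The other pairs of 1 stage had at least 1.61 times, and those of stage 1 had 2.93 to 4.63 times. Tests were two-sided. Intensities by sex were taken after loess and Aquantile scaling. The number of arrays limits the precision, and dim clones were kept.

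At most 2 clones higher and 2 lower were named per comparison, those with the largest ratio or contrast among clones called with 1 sign on 4 arrays: above background in both sexes on all arrays, above background in 1 sex only, and both contrasts of stages, for which the contrast had to be called. Other clones have no identifier here. The members, lists and tests were chosen with earlier results of these data known. Gene and marker lists were not applied, since clones are not paired with genes here, and no clone sequences were used. In simulated data with 200 clones changed, the fit was tested before use. Background correction, normalisation, spots, samples, dyes, thresholds and left-out replicates were varied as alternatives.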

Additional observations from a re-analysis of the deposited data

Results flagged for a closer look

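Clone Myt01-014A02 had 1 array far from the other 3 at stage 1. The log2 ratio of replicate 2 (1.94) lay apart by 0.869 of the range of the 4 arrays, above Dixon's 95% critical value for 4 samples. Females were above background for this clone on 0 of 4 arrays. It was 1 of 9 named clones tested, and chance gives about 1 in 20. Over all clones 161 (8.39%) exceeded the limit.

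The difference between the sexes was not the same at stage 1 as at stage 2 in 139 clones, and not the same as at stage 3 in 9 clones, each by a limma contrast. Directions follow the sexes in the labels. With the sign of the stage 2 ratios turned round, the contrast with stage 2 called 0 clones. Against stage 2, the log2 ratio at stage 1 was larger in Myt01-007H10 (3.37), Myt01-006C06 (3.51), Myt01-005G12 (1.91), Myt01-014A02 (1.49), Myt01-018C02 (2.16) and Myt01-010C06 (2.60). It was smaller in Myt01-004F05 (-3.88), Myt01-005F02 (-3.17) and Myt01-004D01 (-3.44). Against stage 3 it was larger in Myt01-014A02 (1.11), Myt01-018C02 (1.46) and Myt01-010C06 (1.39) and smaller in Myt01-005F02 (-3.22).

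Among the spots outside the comparisons, the median log2 of Cy5 over Cy3 was 0.23 for the 112 alignment spots of replicate 1. Of the blank spots of that array, 95% had a smaller absolute value than 0.184. In replicates 2, 3 and 4 the medians were -0.30, -0.09 and -0.06, within the same share of the blank spots.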

How the results depend on the processing

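The 95 clones called between the sexes at stage 1 became 168 (132 higher and 36 lower in males) with spots kept apart, 40 with a random block for arrays of 1 stage and dye orientation, 18 on the arrays with males in Cy3 only and 52 at a B statistic over 0, the threshold of the study's methods. Without 1 replicate of stage 1 the count was 49 to 68, and without 1 replicate of another stage, which shares the estimate of the spread, 80 to 101. Of the 86 higher clones, 16 were called in all 33 alternatives and 40 without each of the 4 stage 1 replicates in turn. Of the 9 lower clones, 0 were called in all alternatives and 1 without each replicate. The fit of stage 1 alone called 69 clones, 55 of them among the 95, and the authors' deposited values gave 93, with 91 shared. The 139 clones that differed between stages 1 and 2 became 0 with stage 2 turned, and 116 to 131 without 1 replicate of stage 1. The 9 that differed between stages 1 and 3 became 5 with no background correction, 21 with print-tip loess, 18 with median centring, 14 with all 16 arrays as replicates, and 4 to 10 without 1 replicate of stage 1. With the replicate block, the number in the labels as a term, the counts were 84 (80 higher and 4 lower) at stage 1, 133 for stages 1 and 2 and 4 for stages 1 and 3. Same-numbered arrays of different stages deviated together in 4 of 24 pairs (r over 0.1, with a range of -0.591 to 0.406). Whether they share more than a number was not tested. The dye difference had 0 calls and 1 with no background correction. At 3 background SDs the clones above background in both sexes on all arrays were 177, against 289 at 2. The log2 ratios of the 9 named clones kept their direction in all 33 alternatives, and the directions of the other called clones were not followed one by one. The causes of these changes were not tested.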
